A study of Homo sapiens with 30 samples.

Results

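Loucy is a cell line grown from T-cell acute lymphoblastic leukaemia (T-ALL) and is widely used as a model of the early T-cell precursor subtype. Its untreated state is described here from the 3 libraries of Loucy cells given the vehicle dimethyl sulfoxide (DMSO), out of 30 libraries in the series. They were chosen by cell line and treatment alone, and they were set against the DMSO libraries of the T-ALL cell lines PEER, TALL1, Molt16 and PER117, with 3 libraries each. All of these cells had received DMSO for 48 h and no decitabine. The other 15 libraries came from the same lines given 1 µM decitabine (a drug that depletes DNA methyltransferases). They helped decide which genes were tested and entered the scaling and the estimate of the spread, but not the differences between lines. The Loucy libraries among them also serve a comparison with decitabine near the end. Each line stands for 1 leukaemia, so a difference between Loucy and the others is a difference between cell lines. Nothing in the labels ties the 3 libraries of a line to separate cultures, and p-values measure only the spread between these libraries.

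T cells are made in the thymus from blood progenitors. The earliest thymic progenitors still use regulators of haematopoietic stem and myeloid cells, and Notch signals and the factors TCF-1 (encoded by TCF7), GATA3 and BCL11B then commit them to the T lineage. Rearrangement of the receptor genes follows in cortical thymocytes, which carry CD1a, CD4 and CD8 and make terminal transferase. Early T-cell precursor leukaemia is known for an arrest near the first of these steps, with high LYL1, MEF2C or HOXA genes, little CD1a or CD8 and weak CD5.

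Levels are in CPM, the reads on the gene's strand scaled to a common effective library size. The kit reads the 3′ ends of transcripts, so a count was not divided by gene length. All 15081 genes that passed a filter on low counts were tested by quasi-likelihood in edgeR. Calls needed an adjusted p (Benjamini-Hochberg, over all of them) under 0.05. The difference tested was the Loucy log2 level minus the mean of the log2 levels of the 4 other lines, each given the same weight. A line in which a gene is nearly silent therefore pulls that mean far down, and the values of each line are given beside the calls. Where a line held no read of a gene its levels are given without a fitted difference, since that depends on the model's prior count.

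The Loucy libraries held 12.7 M to 15.4 M reads on genes, against 9.93 M to 11.2 M in PER117 and 3.95 M to 6.41 M in the other lines. Loucy and PER117 were the deeper libraries and their files share a naming style, so Loucy against PER117 is the comparison within that set. Of the other lines' libraries, 3 held transcripts of another line. Genes restricted to PEER stood at 20.7% of their PEER level in Molt16 replicate 3 and at 14.3% in TALL1 replicate 3, and genes restricted to Molt16 stood at 4.71% in PEER replicate 2. Genes restricted to Loucy reached at most 0.7% of their Loucy level in any library of another line. Results are given with all libraries, and values without these 3 are given beside the list counts that changed. The T-lineage transcripts CD3D and CD7 were read in all 3 Loucy libraries, CD3D between 251 and 288 CPM and CD7 between 17.1 and 25.5 CPM. Both were lower than the mean of the other lines, and other T-lineage genes, such as TCF7 and ICOS, were low or absent in Loucy, as given below.

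In Loucy 5278 of 15081 genes were higher than the mean of the other lines, or 35%, and 3936 were lower, or 26.1%. Without the 3 mixed libraries 6045 of 15741 genes were higher, or 38.4%, and 3806 were lower, or 24.2%, and 5202 and 3536 genes were called the same way in both fits. All 3 Loucy libraries lay above all 12 others for 1698 genes, or 11.3%, and below them for 1174 genes, or 7.78%. The median difference over all genes tested was 0.06 on the log2 scale, or 0.13 without the mixed libraries. When the reads of each line were summed and the lines served as replicates, edgeR called 0 genes in either direction, with 1151 genes at an unadjusted p under 0.05. No other tool was run on that design. With 1 line against 4 an exact permutation test cannot give a p below 0.2, so none of the differences below can be assigned to a subtype of leukaemia.

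**Figure D1:**
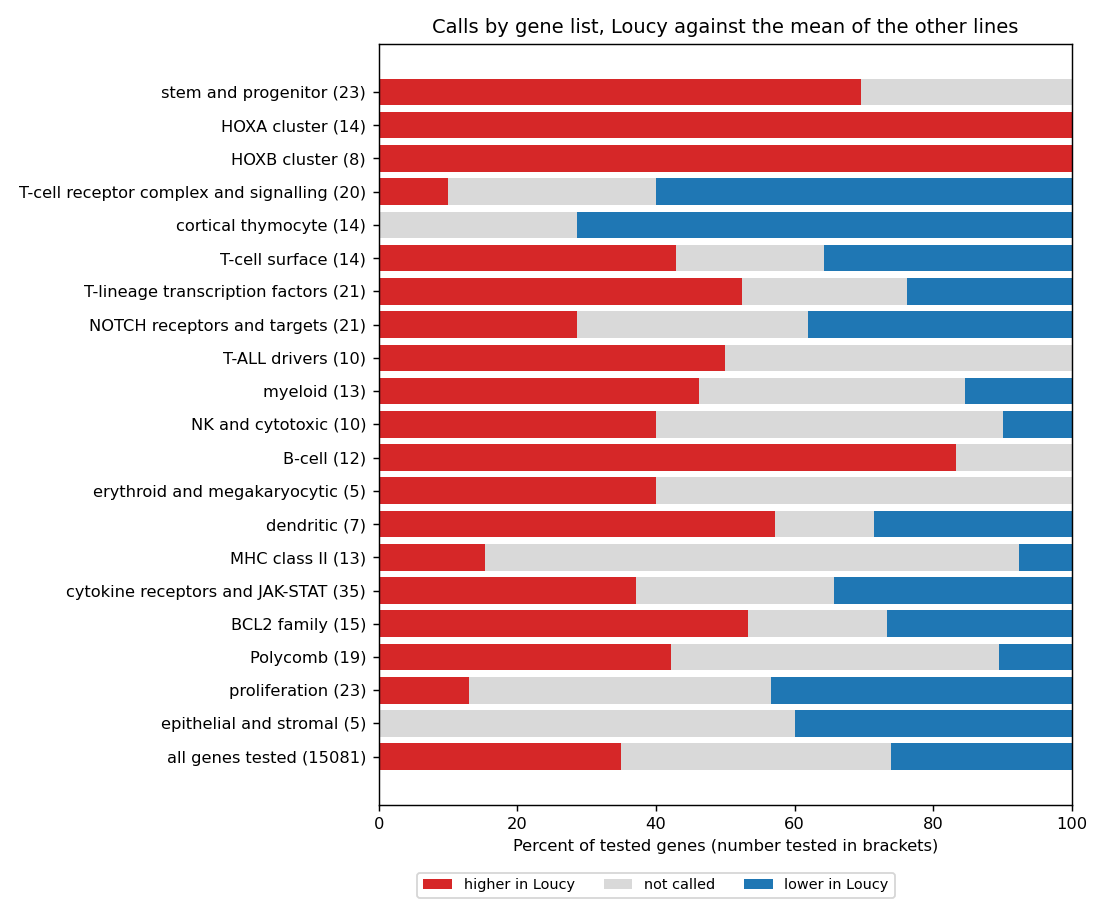
Share of the tested genes of each list that was higher in Loucy (red), not called (grey) or lower in Loucy (blue) than the mean of the other 4 lines, by edgeR's quasi-likelihood test at an adjusted p under 0.05. The bottom bar gives all 15081 genes tested. The HOXA, HOXB, B-cell and progenitor bars hold more red than the bottom bar, and the cortical thymocyte and T-cell receptor bars hold more blue.

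The genes whose Loucy level stood farthest above every other line included VPREB1, HOXA9, XK and MYCN, and those farthest below were led by TFDP1, QKI, CCNC, EZH2 and DENND2D. Promoters of 5 genes at these extremes, or with a leading part in T-cell development, are printed to show which starts are concerned. CpG sites, at which mammalian DNA is methylated, are in capitals. Each line gives the 250 bases before the RefSeq start of the gene on its own strand (GRCh38.p14).

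HOXA9, chr7:27165538-27165787, minus strand: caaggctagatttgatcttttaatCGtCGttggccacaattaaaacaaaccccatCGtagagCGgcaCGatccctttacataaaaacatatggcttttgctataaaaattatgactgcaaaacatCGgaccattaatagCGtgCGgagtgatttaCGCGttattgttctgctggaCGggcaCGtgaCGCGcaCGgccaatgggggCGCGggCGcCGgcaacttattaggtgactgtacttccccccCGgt

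MYCN, chr2:15940300-15940549, plus strand: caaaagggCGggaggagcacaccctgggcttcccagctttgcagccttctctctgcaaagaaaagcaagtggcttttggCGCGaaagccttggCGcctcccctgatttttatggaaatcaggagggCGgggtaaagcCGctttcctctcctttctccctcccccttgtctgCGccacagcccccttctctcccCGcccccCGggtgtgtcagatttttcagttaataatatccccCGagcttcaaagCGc

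VPREB1, chr22:22244536-22244785, plus strand: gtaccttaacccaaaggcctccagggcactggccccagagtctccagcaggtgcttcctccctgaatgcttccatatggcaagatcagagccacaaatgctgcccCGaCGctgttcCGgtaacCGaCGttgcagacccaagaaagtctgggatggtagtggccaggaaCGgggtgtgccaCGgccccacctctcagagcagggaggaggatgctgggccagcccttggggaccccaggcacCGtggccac

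TCF7, chr5:134115363-134115612, plus strand: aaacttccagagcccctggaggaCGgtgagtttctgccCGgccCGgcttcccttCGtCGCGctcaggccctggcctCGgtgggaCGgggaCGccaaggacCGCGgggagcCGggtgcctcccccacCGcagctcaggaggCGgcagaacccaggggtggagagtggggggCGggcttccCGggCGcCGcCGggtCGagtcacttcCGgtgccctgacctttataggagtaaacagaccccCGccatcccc

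EZH2, chr7:148884292-148884541, minus strand: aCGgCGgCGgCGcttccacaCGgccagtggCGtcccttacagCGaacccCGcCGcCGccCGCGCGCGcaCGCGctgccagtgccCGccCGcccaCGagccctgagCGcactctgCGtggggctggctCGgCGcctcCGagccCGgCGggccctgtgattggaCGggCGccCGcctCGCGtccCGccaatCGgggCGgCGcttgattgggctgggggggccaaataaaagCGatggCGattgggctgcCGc

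The motif searched was the dinucleotide CG, which reads the same on both strands. EZH2 held 38 CG sites in this window, a number that 3.16% of 27303 RefSeq promoters of the same length reached or passed. TCF7 held 22, reached or passed by 27.6% of promoters, and HOXA9 held 20, reached or passed by 32.1%. MYCN held 11 and VPREB1 held 8, near the median of 11 over all promoters. DNA methylation was not measured here, and the counts describe the sequence only.

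The genes of the HOXA cluster, homeobox transcription factors that mark stem and progenitor cells and are silenced as blood cells mature, were high in Loucy and near silent in the other lines. HOXA9, which sustains self-renewal, had 80.2, 91.8 and 92.9 CPM in the Loucy libraries, against 0 to 0.54 CPM in the 12 others, with no read in PEER, TALL1 or Molt16. HOXA10, its neighbour with a similar role, had 83.1, 99.9 and 98.3 CPM in Loucy, against 0 to 3.06 CPM (median 0.269). HOXA7 had 71, 51.2 and 79.9 CPM in Loucy, against 0.207 to 5.12 CPM in the others (median 1.83). In each of these genes the lowest Loucy library stood above the highest library of any other line. Of the 16 members of the HOXA list 14 passed the filter on low counts, and all 14 were called higher and lay above all 12 other libraries. Over all genes tested 35% were higher and 11.3% lay above all 12 others. Of the 14, however, 9 were under 1 CPM in every other line and could pass mainly through Loucy. The median difference of the 14 was 5.99 on the log2 scale (6.76 without the mixed libraries), or 4.77 from mean levels with lines at a floor of 3 reads. Summed over the 16 members the level was 319 to 368 CPM in Loucy libraries, against 0.492 to 13.4 CPM in the others. The levels within the cluster were uneven, with HOXA2 at 0.582 ± 0.15 CPM (mean ± SD, n = 3 libraries) and HOXA-AS2 at 0.161 CPM, both below the filter. Genes of the cluster overlap on the genome and the files hold ambiguous reads in a row of their own, so the split between neighbours is uncertain.

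HOXB genes were also high, but the contrast with the other lines was graded along the list. HOXB9 had 131, 145 and 73.5 CPM in the Loucy libraries, against 0 to 2.3 CPM in the 12 others. HOXB8 had 37.8, 37.6 and 29.8 CPM in Loucy, against at most 0.426 CPM. HOXB5 had 101, 88.8 and 87.9 CPM in Loucy, against 9.84 ± 4.69 CPM in PEER, which was the highest of the others. At HOXB2 the groups overlapped, with 37.4 ± 10.8 CPM in Loucy, against 39.7 ± 9.89 CPM in PEER and 56.5 ± 5.69 CPM in PER117. Of 10 members 8 were tested and all 8 were called higher against the mean, and 7 lay above every other library. Over all genes tested 35% were higher and 11.3% lay above all 12 others. Of the 8, 1 was under 1 CPM in every other line and could pass the filter mainly through Loucy. For HOXB2 the low lines were TALL1 and Molt16, at 2.36 and 2.05 CPM. MEIS1, which binds DNA together with HOX proteins, was not tested, with 0.129 CPM in Loucy, against 0.0636 to 0.312 CPM elsewhere.

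**Figure D2:**
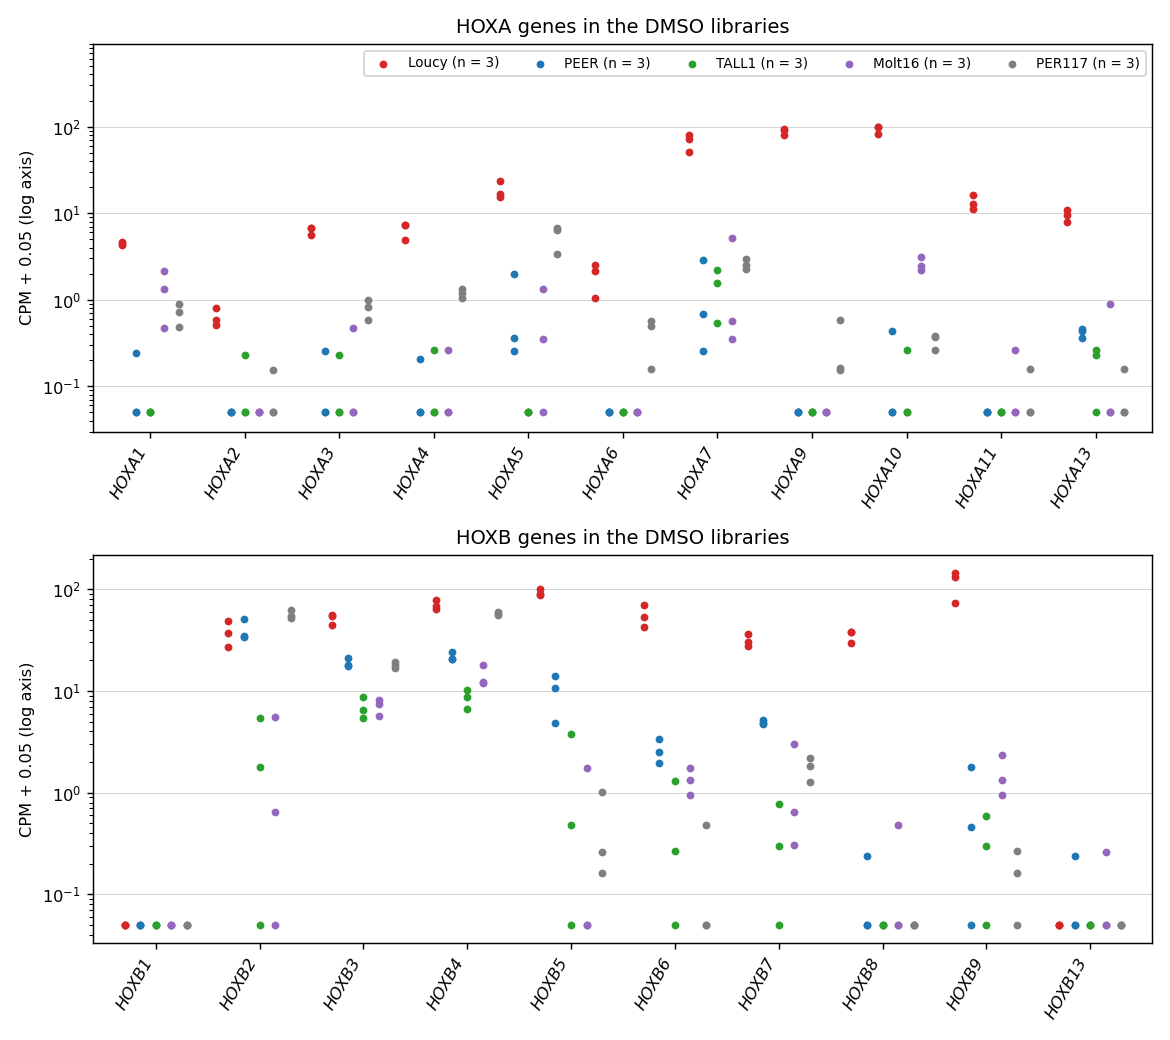
CPM of each HOXA gene (top) and HOXB gene (bottom) in the 15 DMSO libraries, on a log axis after adding 0.05. Each point is 1 library, with 3 libraries a line. The red Loucy points lie above all others at HOXA9 (80.2 to 92.9 CPM) and among the others at HOXB2.

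Other regulators of early progenitors fell into 2 kinds. Some stood far higher in Loucy than in any other line. MYCN, a growth regulator of the MYC family, had 90.1, 93.2 and 81.4 CPM in Loucy, against 0 to 0.62 CPM in the 12 other libraries, a difference of 8.87 ± 0.24 on the log2 scale (SE, adjusted p = 1.18e-20). MEF2C, whose activation defines an immature group of T-ALL, had 142, 156 and 165 CPM in Loucy, against 0 to 32.7 CPM in the others, which were highest in Molt16 (24.4 ± 8.24 CPM). MN1, a transcriptional cofactor of myeloid leukaemias, had 28.2, 22.3 and 24.3 CPM in Loucy, against at most 0.537 CPM. ANGPT1, the ligand of the stem cell receptor TIE2, had 73.6, 84 and 59.5 CPM in Loucy, against 0 to 6.16 CPM. For these 4 genes no Loucy library overlapped with any other.

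The other kind was shared with PEER or PER117. LYL1, the basic helix-loop-helix factor of early thymic progenitors, stood at 155 ± 28.5 CPM in Loucy, against 184 ± 19 CPM in PER117, 53.3 ± 8.05 CPM in PEER, 39.2 ± 9.22 CPM in Molt16 and 3.83 ± 4.74 CPM in TALL1. HHEX, a homeobox target of LMO2, stood at 106 ± 20.5 CPM in Loucy and at 95.1 ± 26 CPM in PEER, against 0.143 to 17.5 CPM in the remaining 3 lines. ERG, an ETS factor of stem cells, stood at 87.2 ± 7.05 CPM in Loucy, between the means of PEER (99.8 ± 15.9 CPM) and PER117 (70.2 ± 7.77 CPM). GATA2 stood at 40.3 ± 4.61 CPM in Loucy, below PER117 at 382 ± 54.3 CPM and above the other lines at 0.477 to 4.89 CPM. All 4 were called higher than the mean, at 1.78 to 4.05 on the log2 scale. ZEB2, a repressor whose gain produces early precursor leukaemia in mice, had 26.3, 21.3 and 26 CPM in Loucy, against 15.6 ± 1.85 CPM in PER117 and 0.179 to 1.83 CPM in the other 3 lines. Its Loucy libraries lay above all others, with PER117 the nearest line. LMO2, the cofactor of LYL1, had a mean of 15.9 CPM in Loucy, against 1.49 to 24 CPM elsewhere, and was called higher only without the mixed libraries.

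Of 28 progenitor genes 23 were tested, 16 were higher, none was lower and 7 were not called, against a background of 35% higher and 26.1% lower. Of the 23, 4 were under 1 CPM in every other line and could pass the filter mainly through Loucy, so the count is a description. Without the mixed libraries 18 were higher and none lower. Against single lines 12 of the 23 were higher than PEER, 16 than TALL1, 16 than Molt16 and 12 than PER117, and 5, 3, 4 and 5 were lower. The backgrounds of these 4 comparisons were 29.9%, 29.7%, 31.9% and 30.2% higher and 28.3%, 30.3%, 29.4% and 27.3% lower. Without the mixed libraries 12, 16, 16 and 13 of the 23 were higher in the same order, and 6, 3, 3 and 5 lower. Surface and cytokine receptors that define stem cells by antibody were not among the high genes. CD34 had 0.0658, 0.642 and 0.341 CPM in Loucy, against 0 to 6.4 CPM in the others (median 0.858). KIT, the receptor of stem cell factor, had 0.0389 ± 0.0674 CPM in Loucy and 46 ± 6.99 CPM in PEER. FLT3 had no read in Loucy, against at most 2.05 CPM on average in PER117. CD44, an adhesion receptor, was high at 114, 143 and 150 CPM in Loucy, against 3.13 to 103 CPM in the others. CD99, IL3RA, CSF2RA and CRLF2 lie in a region shared by both sex chromosomes and had almost no reads in any library of any line, so their levels are not read here.

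Transcripts of T-cell receptor chains were present in Loucy, and how their levels compared with the other lines differed by chain. TRDC, the constant region of the delta chain, had 362, 571 and 368 CPM in Loucy, against 0.255 to 175 CPM in the others (log2 difference 3.76 ± 0.37, adjusted p = 5.85e-10). TRBC1, the first constant region of the beta chain, had 0.329, 0.117 and 0.273 CPM in Loucy, against 17 to 279 CPM in the others. TRBC2, the second constant region, stood at 1323 ± 245 CPM in Loucy and was not called, against 1928 ± 210 CPM in PEER, 3914 ± 294 CPM in TALL1, 3716 ± 1404 CPM in Molt16 and 186 ± 17.4 CPM in PER117. TRBC1 and TRBC2 are near-identical copies and the files hold multimapping reads in a row of their own, so their levels are uncertain. TRAC, the alpha chain, stood at 382 ± 105 CPM in Loucy, near TALL1 at 378 ± 80.1 CPM, with Molt16 at 7917 ± 3077 CPM and PER117 at 1.29 ± 1.41 CPM. It was called higher against the mean of log2 levels, at 1.26, although Molt16 stood far above it and PER117 far below. With PER117 left out of the mean the difference was -1.05, and without Loucy replicate 1 or 2 the call was lost (1.22 and 1.09).

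Proximal signalling genes were mostly lower. LCK, the kinase that starts receptor signalling, differed by -1.10 ± 0.11 on the log2 scale, CD3E by -0.79 ± 0.21 and CD3D by -0.67 ± 0.12. With Molt16 left out of the mean CD3E was at -0.39 and not called (adjusted p = 0.11 by edgeR), and 8 genes of the list were lower. THEMIS, which tunes receptor signals during thymic selection and was not called without PER117 replicate 3, had 1 Loucy library with reads at 0.117 CPM, and was as low in PER117 at 0.036 ± 0.0623 CPM, against 5.94 to 53.3 CPM in the other lines. Of 20 tested genes of the receptor and its signalling 12 were lower and 2 higher, or 12 and 3 without the mixed libraries, and the higher count was 1 without Loucy replicate 1 or 2. With all libraries 60% of the 20 were lower and 10% higher, against 26.1% and 35% of all genes. Against PER117 alone 9 of 20 were higher and 5 lower, or 9 and 6 without the mixed libraries.

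Markers of cortical thymocytes were low in Loucy. DNTT, terminal transferase, had 0.592, 0.934 and 0.0683 CPM in Loucy, against 552 ± 79.2 CPM in PEER, 255 ± 26.3 CPM in TALL1, 41.5 ± 63.3 CPM in Molt16 and 0.612 ± 0.872 CPM in PER117. MAL, a membrane protein of maturing T cells, had 1.58, 2.92 and 0.273 CPM in Loucy, against 2.98 to 159 CPM in the others, with no overlap. CD38 was low in both Loucy (2.16 ± 1.19 CPM) and PER117 (1.48 ± 0.301 CPM), against 20.9 to 168 CPM in the other lines. CD1A, CD8A and CD4 stood at 0.968, 0.147 and 0.0844 CPM in Loucy, and were highest in TALL1 at 42, 19.1 and 6.33 CPM. Summed over 15 members the level was 8.06 to 15.9 CPM in Loucy, against 31.9 to 762 CPM in the others. Of 14 tested members 10 were lower than the mean and none higher, or 8 lower without the mixed libraries and 6 lower without PER117 replicate 3. The 10 are 71.4% of those tested, against 26.1% lower over all genes. Of these 14, 11 were under 1 CPM in the Loucy DMSO libraries, so they could pass the filter mainly through other groups of libraries. Line by line 12 were lower than in PEER, 13 than in TALL1 and 8 than in Molt16, but 1 was lower and 1 higher than in PER117. Without the mixed libraries 9, 11, 5 and 1 were lower in the same order, and 1 was higher than in Molt16 and 1 than in PER117. The low cortical set was thus shared with PER117, except for MAL, which stood at 139 ± 19.1 CPM there.

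**Figure D3:**
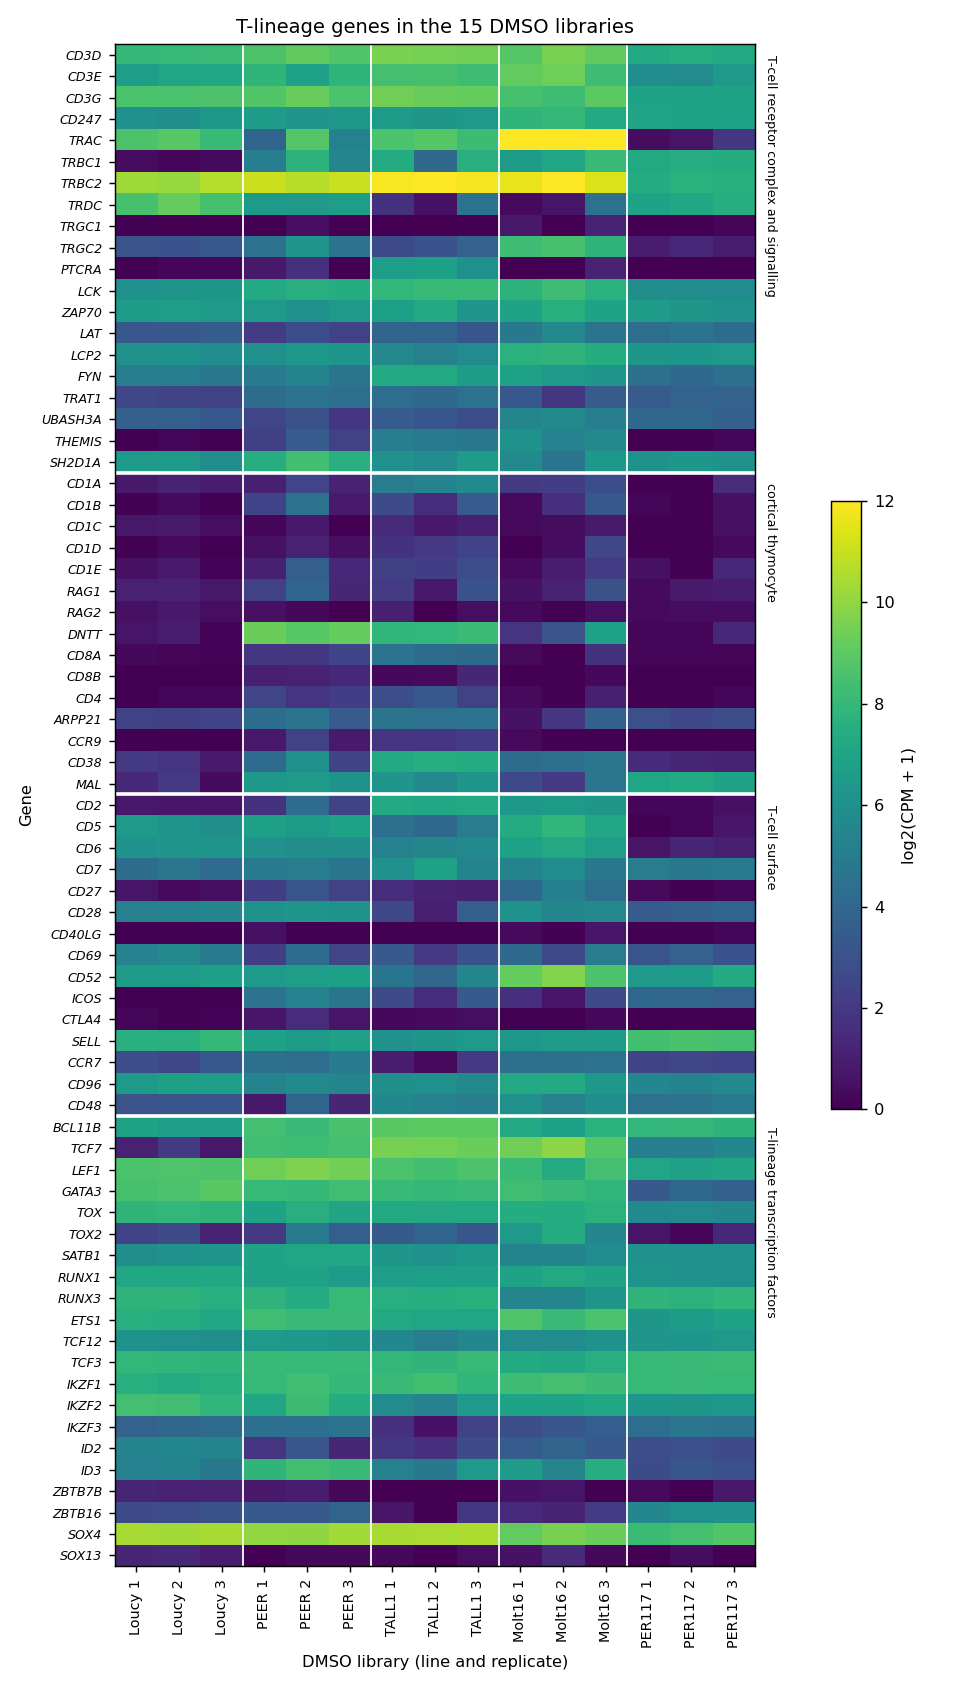
Heat map of log2(CPM + 1) for genes of the T-cell receptor, cortical thymocytes, the T-cell surface and T-lineage transcription factors (rows) in the 15 DMSO libraries (columns, Loucy at the left). The TCF7 and TRBC1 rows are dark in the 3 Loucy columns and brighter in all others. The cortical rows are dark in both Loucy and PER117, except for MAL, which is brighter in PER117.

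The transcription factors of T commitment did not move together. TCF7, which acts first downstream of Notch, had 1.18, 3.1 and 0.683 CPM in Loucy, against 33.6 to 952 CPM in the others, a difference of -7.34 ± 0.33 (adjusted p = 3.22e-17). PER117, the lowest of the other lines at 38.6 ± 8.41 CPM, held 23.4 times the Loucy level. LEF1, the related factor of the same family, was called higher by 0.39 ± 0.13 (-0.04 with PER117 left out of the mean, and not called without Loucy replicate 2) and stood at 401 CPM in Loucy, against 125 to 727 CPM in the line means of the others. GATA3 had 366, 389 and 487 CPM in Loucy, above all 12 others at 9.05 to 321 CPM. BCL11B, which closes alternative fates, stood at 109 ± 8.03 CPM in Loucy, against 329 ± 50.9 CPM in PEER, 495 ± 7.85 CPM in TALL1, 153 ± 45.1 CPM in Molt16 and 237 ± 21 CPM in PER117. ID2, an inhibitor of E proteins that favours innate lymphoid fates, had 40.5, 43.9 and 41.3 CPM in Loucy, against 1.45 to 13.4 CPM. TOX, used in early thymocytes and innate lymphoid cells, had 229, 248 and 221 CPM in Loucy, against 47.9 to 210 CPM. IKZF1, a zinc finger factor of all lymphocytes, had 186, 166 and 181 CPM in Loucy, below all others at 237 to 346 CPM. Of 21 tested factors 11 were higher and 5 lower, or 11 and 4 without the mixed libraries. The lower count was 3 without Loucy replicate 3. With all libraries 52.4% were higher and 23.8% lower, against 35% and 26.1% of all genes. Of the 21, 2 were under 1 CPM in every other line.

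On the T-cell surface, ICOS, a costimulatory receptor, had no read in any Loucy library, against 0.596 to 38.9 CPM in the others. Set against a floor of 3 reads over the group, Loucy was at least 43.8-fold lower than Molt16, the lowest other line. CD2, an adhesion receptor, had 0.66 ± 0.0569 CPM in Loucy, against 0.216 ± 0.187 CPM in PER117 and 8.03 to 155 CPM in the other lines. CD7 was lower by 0.99 ± 0.23 on the log2 scale, with 18, 25.5 and 17.1 CPM in Loucy, against 24 to 116 CPM in the others, so the highest Loucy library overlapped with them. CD5, which is weak by antibody in early precursor leukaemia, was not low as RNA, with 87.1, 73.7 and 61.9 CPM in Loucy, against 106 ± 11.2 CPM in PEER, 22.5 ± 8.56 CPM in TALL1, 180 ± 48.9 CPM in Molt16 and 0.251 ± 0.348 CPM in PER117. Its difference of 2.01 became -0.03 with PER117 left out of the mean. Of 14 tested surface genes 6 were higher and 5 lower, or 42.9% and 35.7%, against 35% and 26.1% of all genes. Of the 14, 4 were under 1 CPM in Loucy and could pass the filter mainly through other groups of libraries.

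Notch receptors and target genes were mixed. NOTCH1 stood at 20.5 ± 1.56 CPM in Loucy, level with Molt16 at 19.5 ± 9.45 CPM and below PEER, PER117 and TALL1 at 43.7, 86.6 and 141 CPM. NOTCH3 and DTX1, a receptor and a target of the pathway, stood at 0.0389 and 0.217 CPM in Loucy and were highest in TALL1 at 123 and 466 CPM. HES1, the best known target, had 17.2, 16.8 and 18.8 CPM in Loucy. Its difference of -1.79 ± 0.44 was called with all libraries and became -0.60, not called, without the mixed ones. Of 21 tested genes 6 were higher, or 28.6% against 35% of all genes, and 8 were lower, or 38.1% against 26.1%. Of the 21, 8 were under 1 CPM in the Loucy DMSO libraries, so they could pass the filter mainly through other groups. Without the mixed libraries 7 were higher and 6 lower, with 38.4% and 24.2% of all genes. MYC, a target of Notch in T-ALL, had 0.197, 0.117 and 0.0683 CPM in Loucy, against 16.2 to 106 CPM in the others (difference -8.29 ± 0.46, adjusted p = 4.83e-15). The lowest other line, TALL1, held 217 times the Loucy level. MYCN stood above MYC in Loucy, and MYC above MYCN in each of the other 4 lines. Of 14 oncogenes that drive T-ALL 10 were tested and 5 were higher than the mean of the lines, or 6 without the mixed libraries. Of the 10, 3 were under 1 CPM in every other line and could pass the filter mainly through Loucy. In the Loucy DMSO libraries 5 of the 10 were under 1 CPM. The 5 higher genes are 50% of those tested, against 35% of all genes. None was lower than the mean, but 4 were lower than in PEER, 4 than in TALL1, 4 than in Molt16 and 1 than in PER117. Without the mixed libraries the counts lower than these lines were 4, 3, 3 and 1.

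**Figure D4:**
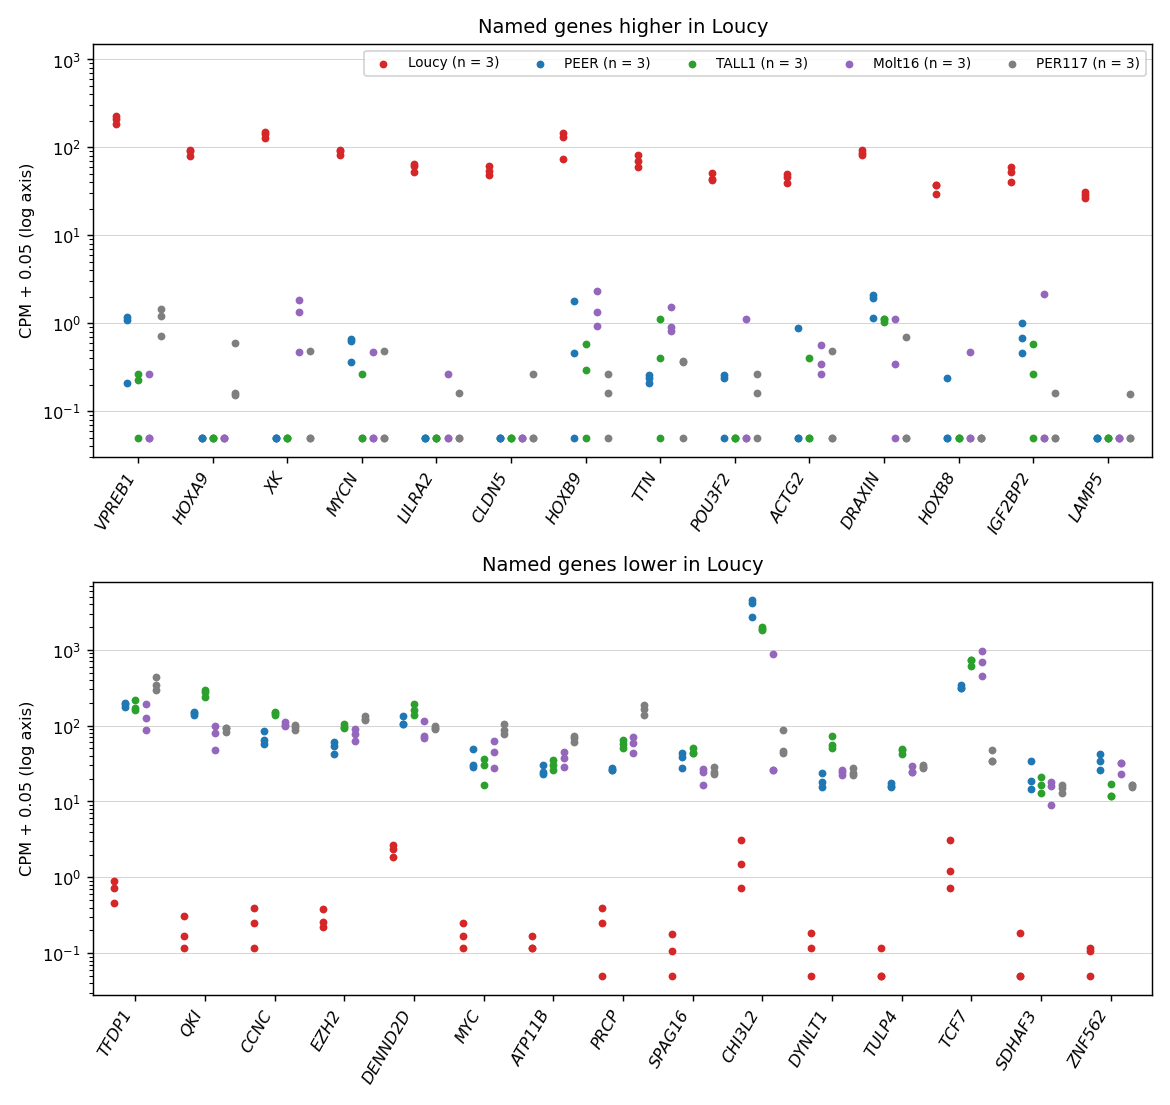
CPM in the 15 DMSO libraries, on a log axis after adding 0.05, of 14 of the 15 genes farthest above (top) and the 15 farthest below (bottom) every other line by the naming rule. Each point is 1 library. The rule asked for groups that do not overlap, so the gaps are a description; EZH2 lies at 0.175 to 0.329 CPM in Loucy and at 42.5 CPM or more in the others.

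Genes of early B cells were higher in Loucy. VPREB1, part of the surrogate light chain of the pre-B cell receptor, had 212, 228 and 185 CPM in Loucy, against 0 to 1.4 CPM in the others, a difference of 9.28 ± 0.20 (adjusted p = 1.04e-23). IGLL1, the other part of that chain, was shared, at 341 CPM in Loucy, 285 CPM in PER117 and 244 CPM in PEER. IGHM, the mu heavy chain constant region, had 186, 259 and 159 CPM in Loucy, against at most 1.19 CPM. CD79A, a signalling subunit of the B-cell receptor, had 36.9, 48.7 and 52.8 CPM in Loucy, against 0.104 to 38 CPM. EBF1, which specifies the B lineage, had 14.3, 12.6 and 12.8 CPM in Loucy, against at most 1.19 CPM, and CD22 had 4.78 to 5.02 CPM, against at most 0.108 CPM. The factor that commits B cells was not among them. PAX5 had a mean of 0.388 CPM in Loucy, against 0.149 to 1.23 CPM elsewhere, and MS4A1, which encodes CD20, stood at 0.0228 CPM. Of 15 members 12 were tested, 10 were higher and none was lower, with 3 of the 12 under 1 CPM in every other line. The 10 are 83.3% of those tested, against 35% higher over all genes. The summed level was 790 to 954 CPM in Loucy libraries, against 16.5 to 341 CPM in the others. Bulk RNA cannot tell a few cells with much of a transcript from many cells with little, and the summed levels are averages over the culture.

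Myeloid, dendritic, natural killer and megakaryocytic genes appeared singly. SPI1, which encodes the myeloid master factor PU.1, had 1.65, 2.57 and 2.25 CPM in Loucy, against at most 0.432 CPM in the others. LYZ, lysozyme, had 3.22, 5.61 and 4.91 CPM in Loucy, against at most 0.255 CPM. CD33 and ITGAM, surface markers of myeloid cells, stood at 6.43 and 5.81 CPM in Loucy, with CD33 far higher in PER117 at 52.9 CPM. The CD33 call against the mean was lost with TALL1 or Molt16 left out, at 0.66 in both cases. CEBPA, the factor of granulocyte fate, had no read in Loucy and was at least 20.2-fold lower than TALL1, the lowest other line. ELANE, PRTN3, AZU1, CSF3R and S100A8 had no read in Loucy. Of 30 myeloid members 13 were tested, 6 higher and 2 lower (46.2% and 15.4%, against 35% and 26.1% of all genes), or 7 and 2 without the mixed libraries. Of the 13, 5 were under 1 CPM in every other line, among them LYZ and SPI1, which could pass the filter mainly through Loucy. The summed level was 79.5 to 88.2 CPM in Loucy, against 98.5 to 447 CPM in the others. ITGA2B, the platelet integrin CD41, had 43.2, 36.7 and 36.7 CPM in Loucy, against at most 2.61 CPM, whereas PF4, GP9 and globin genes were under 1 CPM. ZBTB46, a factor of classical dendritic cells, had 12.7, 11.6 and 13.7 CPM in Loucy, against at most 0.596 CPM, and CLEC9A had 4.03 to 10.9 CPM, against at most 1.94 CPM. TBX21, the factor T-bet of type 1 lymphocytes, had 17.6, 17.1 and 8.53 CPM in Loucy, against at most 8.17 CPM. All 12 epithelial and stromal markers were under 1 CPM in Loucy. Of 5 tested 2 were lower (40%, against 26.1% of all genes), or 1 without PER117 replicate 2.

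Of 12 dendritic members 7 were tested, 4 higher and 2 lower, or 5 and 1 without the mixed libraries and 1 lower without Molt16 replicate 3. With all libraries 57.1% of the 7 were higher and 28.6% lower, against 35% and 26.1% of all genes. Of the 7, 2 were under 1 CPM in every other line. Of 19 natural killer and cytotoxic genes 10 were tested, 4 higher and 1 lower (NKG7, at -0.49, or 0.15 with Molt16 left out of the mean), and 0 were lower without Loucy replicate 1 or 2. The natural killer counts are 40% higher and 10% lower, against the same 35% and 26.1%. Of 16 erythroid and megakaryocytic genes 5 were tested and 2 were higher, or 40%. Of the 5, 2 were under 1 CPM in every other line. The classical MHC class II genes were at or under 0.24 CPM in Loucy. HLA-DRA had no read in Loucy and was detected mainly in Molt16 at 23.1 CPM. Of 13 tested genes of the class II list, 8 were under 1 CPM in the Loucy DMSO libraries and could pass the filter mainly through other groups. Of the 13, 2 were higher and 1 lower, or 15.4% and 7.69%, both under the shares of all genes. The lower count was 0 without Loucy replicate 1 or 3 or PEER replicate 1 or 3.

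Cytokine receptors and the JAK-STAT pathway carry survival signals in early T cells, and mutations that activate them are common in early precursor leukaemia. IL7R, the interleukin 7 receptor, had 5.86, 6.42 and 6.14 CPM in Loucy, against 3.1 to 77.7 CPM in the others, and was lower by 1.61 ± 0.44 on the log2 scale (adjusted p = 0.00213). IL2RB had 29.7, 36.6 and 21.6 CPM in Loucy, above all others at 4.09 to 20 CPM. STAT5B had 103, 88.1 and 62.9 CPM in Loucy, against 18.9 to 57.8 CPM. CISH, an inhibitor that STAT5 induces, had 3.42, 1.81 and 2.66 CPM in Loucy, below all others at 4.67 to 232 CPM, and SOCS2, of the same family, stood at 2.3 ± 0.715 CPM in Loucy, against 4.67 to 47 CPM in the line means of the others. STAT5B and its induced inhibitors thus stood on opposite sides of the other lines. Of 35 tested genes 13 were higher and 12 lower, or 37.1% and 34.3%, against 35% and 26.1% of all genes.

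Among regulators of cell death, BCL2 was high and BAX low. BCL2, the survival factor that venetoclax inhibits, had 180, 167 and 164 CPM in Loucy, against 18.2 to 93.5 CPM in the others, a difference of 1.95 ± 0.09 (adjusted p = 1.96e-16). TALL1 was the highest other line at 83.1 ± 11 CPM, and the Loucy mean was 2.05 times that. BAX, which opens the mitochondrial membrane, had 10.7, 16.1 and 5.26 CPM in Loucy, below all others at 16.6 to 91.7 CPM. BCL2L1, the survival factor BCL-XL, stood at 21.7 ± 5.38 CPM in Loucy, near Molt16 at 19.6 ± 4.34 CPM and below the other lines at 52.9 to 85.8 CPM. Of 15 tested family members 8 were higher, or 53.3% against 35% of all genes, and 4 were lower, or 26.7% against 26.1%. Without the mixed libraries 9 were higher and 4 lower.

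EZH2, the methyltransferase of Polycomb repressive complex 2, was nearly absent from Loucy. It had 0.329, 0.175 and 0.205 CPM, from 11 reads in all, against 42.5 to 134 CPM in the 12 other libraries (difference -8.38 ± 0.25, adjusted p = 1.18e-20). PEER, the lowest other line at 52.2 ± 9.14 CPM, held 221 times the Loucy level. The other core subunits were present, with SUZ12 at 203 CPM and EED at 116 CPM in Loucy, and neither was called. EZH1, the related methyltransferase, stood at 15.3 CPM in Loucy and 13.6 to 31 CPM in the others. JARID2, a cofactor of the complex, had 787, 709 and 606 CPM in Loucy, above all others at 219 to 525 CPM, and BMI1, of Polycomb complex 1, had 126, 133 and 128 CPM, above all others at 33.5 to 55 CPM. Of 19 tested Polycomb genes 8 were higher and 2 lower (EZH2 and RING1), or 11 and 3 without the mixed libraries. With all libraries these are 42.1% and 10.5%, against 35% and 26.1% of all genes.

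Several other genes that all 4 other lines used were close to silent. TFDP1, the partner that E2F factors need to bind DNA, had 0.855, 0.409 and 0.683 CPM in Loucy, against 88.1 to 435 CPM in the others. QKI, an RNA-binding splicing regulator, had 0.263, 0.117 and 0.0683 CPM in Loucy, against 47.1 to 296 CPM. CCNC, cyclin C of the Mediator kinase module, had 0.197, 0.35 and 0.0683 CPM in Loucy, against 57.3 to 151 CPM. SLFN11, which sensitises cells to DNA damage, had 0.263, 0.467 and 0.137 CPM in Loucy, against 3.1 to 124 CPM. A class set after the values were seen had under 0.5 CPM in Loucy and at least 5 CPM in each other line. With all libraries it held 35 genes, of which 32 code for protein. Without the mixed libraries some of them fell below 5 CPM, such as SLFN11 in PEER (3.12 CPM) and UBE2E3 in TALL1 (2.52 CPM). PRCP and DDIAS, which are neighbours on chromosome 11, both belonged to this class, at 0.18 and 0.0389 CPM in Loucy. DYNLT1 and TULP4 on chromosome 6 stood at 0.0674 and 0.0219 CPM. The reverse class, with at least 20 CPM in Loucy and under 1 CPM in each other line, held 32 genes.

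Genes of the cell cycle were expressed in Loucy, and more of them were lower than higher. MCM7, a subunit of the replicative helicase, had 160, 162 and 174 CPM in Loucy, below all others at 419 to 748 CPM. E2F1, the partner of TFDP1, had 47.3, 49.5 and 45.5 CPM in Loucy, below all others at 66.6 to 190 CPM. CCNE1, cyclin E, had 60.5, 57.5 and 57.8 CPM in Loucy, above all others at 17.8 to 45.4 CPM. MKI67 and TOP2A, markers of dividing cells, were not called, at 270 and 1806 CPM in Loucy. Of 23 tested genes 3 were higher and 10 lower, with a median difference of -0.13 on the log2 scale, against 0.06 over all genes. These counts are 13% and 43.5%, against 35% and 26.1% of all genes.

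Some of these genes responded to decitabine in Loucy, in a comparison that shares the Loucy DMSO libraries with the values above. EZH2 rose to 1.59 CPM with decitabine, against 0.236 CPM with DMSO (adjusted p = 3.15e-06), and so stayed far below the other lines. PECAM1 rose to 9.46 CPM with decitabine, against 0.212 CPM with DMSO, and GGA2 to 8.54 CPM, against 0.315 CPM. TFDP1, QKI, CCNC and MYC were not called. Of the 35 near-silent genes 14 were called higher with decitabine, with a background of 10.6% of all genes tested. The 35 were chosen for low values in the same DMSO libraries, so this count is a description. Some of them, such as PECAM1 (3.73 CPM in PEER without the mixed libraries), reached 5 CPM in each other line only with those libraries.

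Differences by position were largest at one end of chromosome 16. Among genes whose Loucy level and mean level of the other lines summed to 20 CPM or more, the 92 genes in the first 10 Mb had a median difference of -1.09 on the log2 scale, with 78 called lower and 5 higher. The next 10 Mb held 33 genes with a median of -0.82, with 23 called lower and 3 higher. Over all genes tested, at any level, 26.1% were called lower and 35% higher. The median of the first window was -1.24 against PEER, -1.04 against TALL1, -1.15 against Molt16 and -1.13 against PER117, and -1.07 without the mixed libraries. In steps of 5 Mb the median was -1.05, -1.41, -0.92 and -0.58 and then 0.07 between 20 and 25 Mb. Over 170 windows with at least 20 such genes the medians ran from -1.09 to 0.68, with the 5th and 95th percentiles at -0.28 and 0.46. The second lowest window lay on chromosome 6 between 150 and 160 Mb, with a median of -0.94 over 21 genes, 16 of them called lower. Exceptions in the first window of chromosome 16 included CDIP1 at 2.73 and ECI1 at 2.07. DNA copy number was not measured here. Windows were looked at with no test, and neighbouring genes are not independent.

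**Figure D5:**
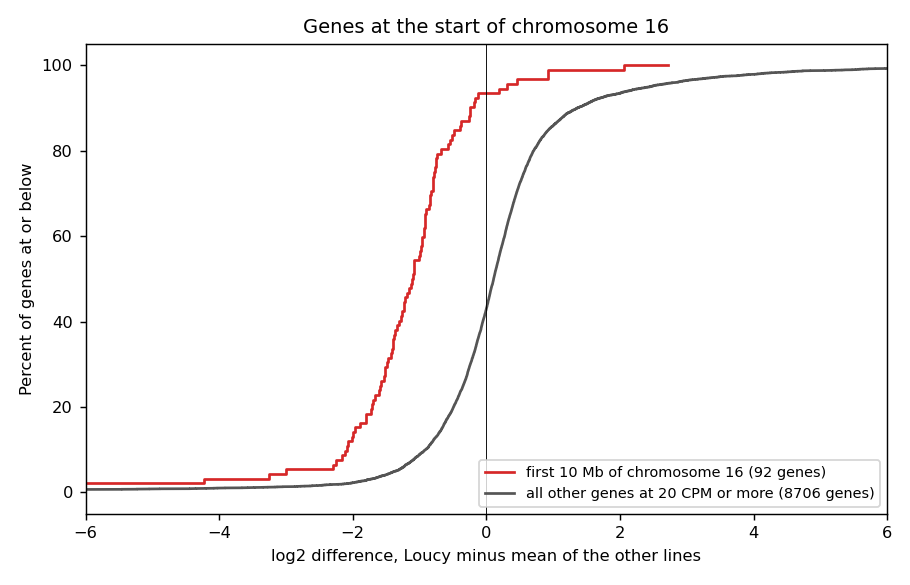
Cumulative share of genes by their log2 difference, Loucy minus the mean of the other lines, for 92 genes in the first 10 Mb of chromosome 16 (red) and 8706 other genes at 20 CPM or more (grey). The red curve is shifted to the left, with a median of -1.09, and 92.4% of its genes lie below 0, against 43% of the other genes.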

How the data were processed

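RNA was read from transcript 3′ ends (QuantSeq FWD), per the labels' protocols. The authors deposited whole-number counts per gene for each library, in an unstranded column and 1 column per strand, and the gene-strand column was used. STAR 2.4.2a, DESeq2 and the build GRCh38 (hg38) stand in the submitters' processing notes, and no source used here names the annotation release. Symbols came from GENCODE release 29, which matched 56996 of 60554 IDs. Rows for unmapped, multimapping, ambiguous and featureless reads were left out of library sizes.

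All 30 libraries in 10 groups were fitted with edgeR 4.0.16 in R 4.3.3 (TMM, filterByExpr with a minimum count of 10, quasi-likelihood F test, Benjamini-Hochberg adjustment). The SE is the log2 difference divided by the root of F. The step was tested on simulated data. One alternative used DESeq2 1.42.0, and the others are given with their effects below. No 2 DMSO libraries of the same line agreed within sampling noise, and other pairs were not checked for this. PEER titles and file names number replicates 2 and 3 differently, and titles were followed.

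The genes described and all 20 lists, whose 369 symbols all matched, were chosen with earlier results of these data known. Beyond the lists, protein-coding genes called the same way in both fits and with no overlap between groups were ranked by the log2 gap to the nearest other line with 1 CPM added, and the first 15 were taken each way, from at least 20 CPM in Loucy or at least 5 CPM in every other line. Some genes that the rule or the lists hold are not reported here by name, and the counts include them.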

Additional observations from a re-analysis of the deposited data

How the results depend on the processing

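Loucy is 1 line, and none of the calls generalises beyond it. With lines as replicates edgeR called 0 genes higher and 0 lower, so each list count became 0. That fit set Loucy against 1 shared level fitted to the summed reads of the other lines, which a high line pulls up. Its differences are therefore another quantity than those from the mean of log2 levels. For CD33, GATA2, CD5, LMO2, TRAC and PAX5 they were -1.17, -1.29, -0.08, -0.16, -2.45 and -0.44. Under the other alternatives 4379 to 6205 genes were higher and 3345 to 4516 lower. A replicate block gave 5258 higher and 3900 lower. It moved no named gene across the threshold and no list count by over 1.5 times. Over 30 same-numbered pairs of libraries the correlations of deviations ran from -0.138 to 0.272. The 3 over 0.1 were the 3 pairs of TALL1 with Molt16 (0.12, 0.172 and 0.272, against -0.232 to 0.124 for their other pairs), and both replicates 3 are mixed libraries. No same-numbered pair with Loucy was over 0.1. Its pairs with libraries of another number ran from -0.126 to 0.207, both with PER117. The numbers were not used as pairs.

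With the DMSO libraries only, 1 receptor gene, 3 T-ALL drivers, 4 Polycomb genes and 1 MHC class II gene were higher, and 3 T-lineage factors and 0 class II genes were lower. At a minimum count of 30, 3 drivers and 0 class II genes were higher. Without a filter 0 class II genes were lower. From the unstranded column 1 myeloid and 2 class II genes were lower. DESeq2 called 3 NK and 6 class II genes lower. Without the mixed libraries, in the fit of all groups and in that of DMSO libraries only (chosen after seeing the data), 1 dendritic gene was lower, and the CD34 difference was 1.09 and 1.08.

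With PEER left out of the mean, 3 NOTCH genes were higher, 3 T-lineage factors and 2 class II genes were lower, and TOP2A was at -0.01. With TALL1 left out, 2 NK genes were lower, and EZH1, LMO2, MKI67 and TRBC2 were at 0.07, -0.51, 0.07 and 0.26. With Molt16 left out, 5 Polycomb genes were higher and 0 NK genes lower, and EED, MKI67, NKG7, PAX5 and TRBC2 were at -0.06, 0.05, 0.15, -0.14 and 0.24. With PER117 left out, 1 receptor, 3 surface and 1 class II gene were higher, 4 NK, 3 class II and 4 epithelial genes were lower, and CD5, LEF1, NKG7, PAX5 and TRAC were at -0.03, -0.04, 0.0, -0.38 and -1.05. Leaving out 1 library at a time gave 1 to 3 receptor genes higher, and 6 to 11 cortical, 3 to 6 T-lineage factor, 0 to 1 NK, 1 to 2 dendritic, 0 to 1 class II and 1 to 2 epithelial genes lower, with CD34 at -2.09 to 0.03 and PAX5 at -0.52 to 0.88. The cause was not tested in any of these.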
